A study of Ovis aries with 15 samples.

Results

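The probes of 4 genes that govern how fetal kidney cortex responds to corticosteroids were followed over 15 arrays: the glucocorticoid receptor (NR3C1), the mineralocorticoid receptor (NR3C2) and both 11-beta-hydroxysteroid dehydrogenases (HSD11B1 and HSD11B2). They were chosen by gene name, with every probe of each gene kept, which gave 4 of the 775 genes that could be named and 7 of the 15008 probes on the array. NR3C1 had 1 probe and the other genes had 2 each. HSD11B2 stands on the array under an older name and was matched by its transcript accession, and NR3C2 was recognised from the array's description of the transcript, not from its gene name. FKBP5 and SGK1, 2 genes that these receptors are known to induce, were looked for by the same routes and are not analysed here.

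The cortex came from chronically catheterized ovine fetuses at 125 ± 3 days of gestation, collected 24 h after the start of a 30 min exposure. Ketamine, an anesthetic that blocks NMDA receptors, went into a fetal vein at 3 mg/kg, 10 min ahead of the exposure. There were 4 fetuses with ketamine and hypoxia, 4 with saline vehicle and hypoxia, 4 with ketamine and normoxia, and 3 with vehicle and normoxia. Hypoxia was produced through the ventilation of the ewe. Each array carried the RNA of 1 fetus, and the p-values below measure the spread between fetuses.

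Cortisol reaches a cell through NR3C1, a receptor that moves to the nucleus once bound and raises or lowers its target genes. NR3C2 binds aldosterone and cortisol alike, and in the collecting duct HSD11B2 turns cortisol into inactive cortisone, which leaves NR3C2 open to aldosterone. HSD11B1 mostly works the other way and regenerates cortisol from cortisone inside the cell. In the fetus cortisol climbs towards term and is known to mature sodium transport in the kidney.

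The probe sequences show which measurements stand on their own. The NR3C1 probe is given whole, because the only reading of this gene rests on its 60 bases, of which 35.0% are G or C.
NR3C1 A_70_P016896: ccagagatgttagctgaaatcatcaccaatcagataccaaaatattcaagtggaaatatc
It has 1 forward reading frame without a stop codon. The first 30 bases of both HSD11B2 probes are given because they overlap, with the stretch they share in capitals.
HSD11B2 A_70_P051182: aGCCACAGGGAGGCTACATACTCACCTGAT
HSD11B2 A_70_P051181: GCCACAGGGAGGCTACATACTCACCTGATt
The second of these is the first moved by 1 base, so that 59 of 60 bases are shared and the pair is 1 measurement made 2 times. Each holds the letters AATAAA, a polyadenylation motif, at position 43 in the first and 42 in the second, counted from 1 at the 5′ end. These letters stand on the printed strand of 5.63% of all 15008 probes, on either strand of 9.14%, and on neither strand of the other 5 probes followed here. By contrast the first 30 bases of the NR3C2 and HSD11B1 probes show separate stretches of each transcript.
NR3C2 A_70_P041846: ttaactatgccatgtcgtttctgggatcgt
NR3C2 A_70_P041847: cttagaaacatgttcctgttcctctggata
HSD11B1 A_70_P051221: atgtcgcattggctttaacttcagttcatt
HSD11B1 A_70_P051222: ctgcgaaattgacagtatccatagatataa
The longest run common to the 2 whole probes is 6 bases for NR3C2 and 5 bases for HSD11B1. Across the 15 arrays the paired probes nevertheless tracked each other, with a Pearson correlation of 0.963 for NR3C2, 0.989 for HSD11B1 and 0.990 for the overlapping HSD11B2 pair.

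All 7 probes were well above background on each of the 15 arrays and none was saturated, so every group has measured values. Levels are given as log2 signal relative to the 75th percentile of the same array, where 0 equals that percentile. The 75th percentile lay between 1075.1 and 1456.0 intensity units, and 75.7% to 85.2% of probes were well above background on an array. Of 11 proximal tubule markers 5 were on the array and passed the filter, among them the phosphate transporter SLC34A1. Of 10 collecting duct markers 7 did, among them the water channel AQP2. The filter passed most probes (12925 of 15008), and 4 of 6 liver markers and 4 of 10 placental markers passed it too. These counts therefore do not identify the tissue. The transcript of placental lactogen was well above background on 3 arrays (hypoxia ketamine replicate 2, normoxia ketamine replicates 1 and 2). The arrays of hypoxia ketamine replicate 2 and hypoxia vehicle replicate 4 had the lowest median correlation with the others, 0.966 and 0.952. Results are also given without these arrays where that changes a call. A gene was called where limma's unadjusted p was at most 0.05, the threshold of the submitters' study, and p-values adjusted over all 12925 tested probes stand beside it.

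Both receptors were lower in hypoxic than in normoxic cortex. Averaged over ketamine and vehicle fetuses, NR3C2 fell by 0.42 ± 0.11 on the log2 scale (SE; 0.75 of the normoxic level) and NR3C1 fell by 0.40 ± 0.12 (0.76 of the normoxic level). HSD11B1 fell by 0.57 ± 0.25 (0.673 of the normoxic level). HSD11B2 differed by -0.21 ± 0.15 and did not pass. In this average 5 of the 7 probes were lower, and they come from 3 of the 4 genes. Of all tested probes 12.1% were lower and 20% were called in either direction. None of the 7 passed after adjustment, which 1.51% of all tested probes did.

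NR3C1 read -4.25, -4.05, -3.59 and -3.61 in the hypoxia ketamine fetuses and -3.74, -4.01, -4.07 and -3.54 in the hypoxia vehicle fetuses. It read -3.54, -3.22, -3.56 and -3.64 in the normoxia ketamine fetuses and -3.54, -3.45 and -3.31 in the normoxia vehicle fetuses. All 4 readings below -4 were hypoxic, while the other 4 hypoxic readings reached into or close to the normoxic range. The mean was -3.86 ± 0.27 over the 8 hypoxic fetuses and -3.47 ± 0.15 over the 7 normoxic fetuses (SD).

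NR3C1 was called in each drug arm. Among ketamine fetuses it fell by 0.38 ± 0.17 (limma, adjusted p = 0.55), and among vehicle fetuses by 0.41 ± 0.18 (adjusted p = 0.3). The interaction, which tests whether these differ, was 0.03 with a 95% interval of -0.51 to 0.56. The average over both arms had adjusted p = 0.108, with a 95% interval of -0.67 to -0.13. The average passed with any 1 array left out, between -0.45 and -0.33, and it was -0.36 within slide 1 and -0.46 within slide 2, where neither passed. Without the 3 arrays with placental lactogen it was -0.31, and with normexp background correction, which adds 50 units to each signal, it was -0.20; neither passed. With the slide as a block the call among vehicle fetuses was lost (-0.39), and with the replicate number as a block the call among ketamine fetuses was lost (-0.38). The NR3C1 signal itself spanned 66.8 to 133 units.

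The 2 separate calls for NR3C1 depended on single arrays. The call among ketamine fetuses was lost without hypoxia ketamine replicate 1 (-0.26) or 2 (-0.33) and without normoxia ketamine replicate 1 (-0.40), 2 (-0.29) or 3 (-0.41). The call among vehicle fetuses was lost without hypoxia vehicle replicate 2 (-0.35) or 3 (-0.33), without normoxia ketamine replicate 1 or 3 (-0.41 each), and without normoxia vehicle replicate 1 (-0.46), 2 (-0.42) or 3 (-0.35). Without the 3 placental lactogen arrays the change was -0.22 among ketamine and -0.41 among vehicle fetuses, and neither passed. Without the 2 arrays of lowest correlation it was -0.33 among ketamine fetuses, which did not pass. A two-sided exact permutation test on these fetuses gave p = 0.114 for ketamine fetuses and p = 0.0571 for vehicle fetuses, the second of which is the smallest that 4 against 3 allows.

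NR3C2 showed the tightest contrast of the 4 genes. Its brighter probe read 2.28, 1.72, 2.25 and 2.19 in the hypoxia ketamine fetuses and 2.39, 1.68, 2.03 and 2.0 in the hypoxia vehicle fetuses. The same probe read 2.44, 2.47, 2.38 and 2.45 in the normoxia ketamine fetuses and 2.52, 2.44 and 2.64 in the normoxia vehicle fetuses. Within each drug arm every hypoxic fetus lay below every normoxic one, a complete separation in the lower direction that 3.62% of all tested probes showed among ketamine fetuses and 9.11% among vehicle fetuses. Across arms a single pair crossed, hypoxia vehicle replicate 1 and normoxia ketamine replicate 3. The SD was 0.26 over the 8 hypoxic fetuses and 0.08 over the 7 normoxic fetuses, and replicate 2 was the lowest of the hypoxic fetuses in either drug arm.

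Among ketamine fetuses NR3C2 changed by -0.33 ± 0.15 with hypoxia (limma, adjusted p = 0.576). This missed limma's unadjusted threshold narrowly, with a 95% interval of -0.65 to 0.00, while the two-sided exact permutation test gave p = 0.0286, the smallest that 4 against 4 allows. It also passed limma's threshold under normexp (-0.36) and, at -0.33 each, with the slide block, the replicate block, the filter of all 15 arrays, only the compared groups in the fit, and the deposited table. It did not pass without the 3 placental lactogen arrays (-0.18) or the 2 arrays of lowest correlation (-0.20). Among vehicle fetuses NR3C2 fell by 0.51 ± 0.16 (adjusted p = 0.193). The arms were not shown to differ, since the interaction was 0.18 with a 95% interval of -0.30 to 0.66. The average over both had adjusted p = 0.0708, with a 95% interval of -0.66 to -0.18. It passed with any 1 array left out (-0.48 to -0.35), without the 3 placental lactogen arrays (-0.34) and without the 2 arrays of lowest correlation (-0.35). It was -0.57 within slide 1, which passed, and -0.29 within slide 2, which did not.

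The second NR3C2 probe, which shares no long stretch with the first, read 0.58, 0.12, 0.74 and 0.75 in the hypoxia ketamine fetuses and 0.83, 0.12, 0.62 and 0.42 in the hypoxia vehicle fetuses. It read 0.76, 0.91, 0.78 and 0.89 in the normoxia ketamine fetuses and 0.96, 0.93 and 1.08 in the normoxia vehicle fetuses. Again each arm separated completely. Its difference of -0.29 among ketamine fetuses did not pass, and it fell by 0.49 among vehicle fetuses (limma, adjusted p = 0.223) and by 0.39 on average (adjusted p = 0.0998).

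**Figure D1:**
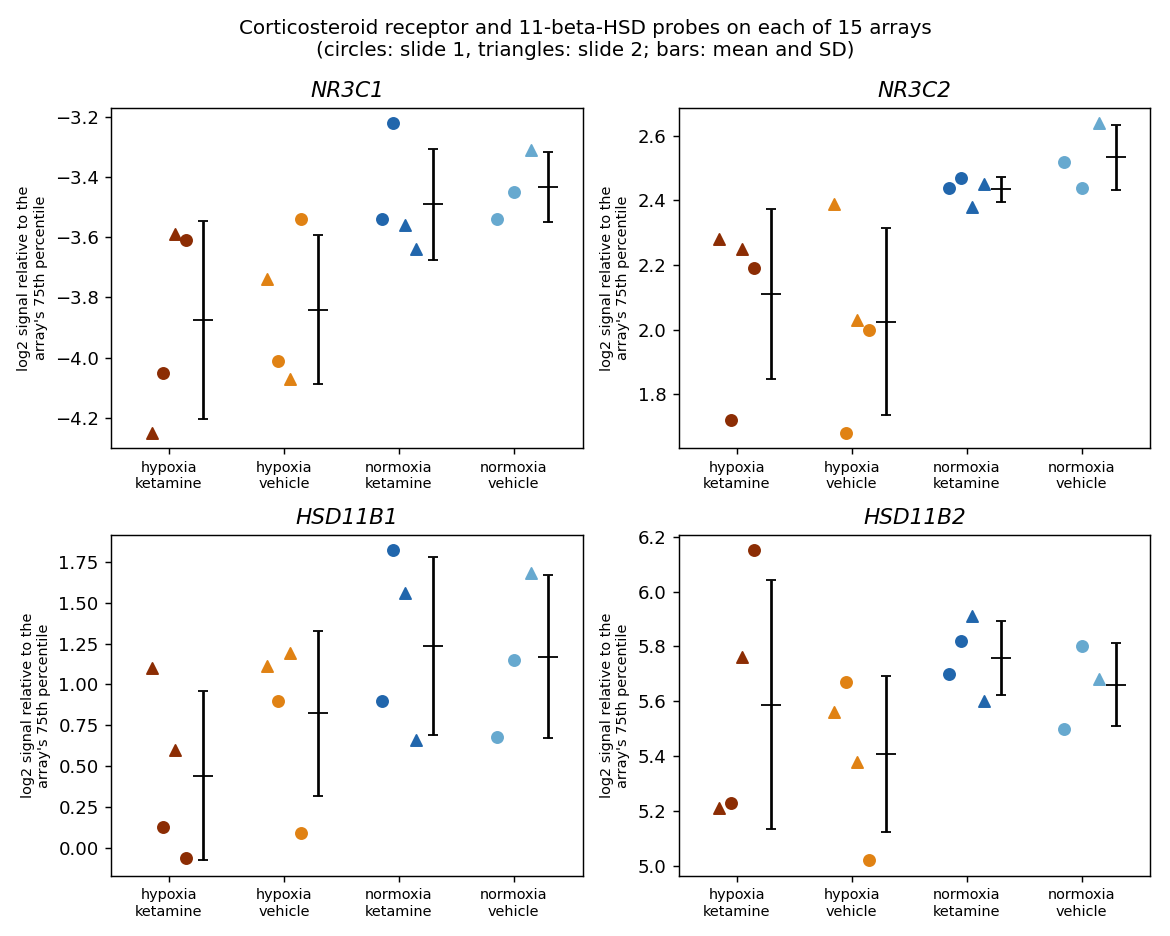
Log2 signal relative to the array's 75th percentile (vertical axis) of NR3C1 and the brighter probes of NR3C2 and HSD11B1 and 1 HSD11B2 probe in each fetus, by group (horizontal axis). Points are fetuses, with circles for slide 1 and triangles for slide 2, and bars give the mean and SD; NR3C2 separates hypoxic from normoxic fetuses within each drug arm, and HSD11B2 overlaps throughout.

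HSD11B1, the enzyme that regenerates cortisol, varied more between fetuses than either receptor. Its brighter probe read 1.1, 0.13, 0.60 and -0.06 in the hypoxia ketamine fetuses and 1.11, 0.90, 1.19 and 0.09 in the hypoxia vehicle fetuses. It read 0.90, 1.82, 1.56 and 0.66 in the normoxia ketamine fetuses and 0.68, 1.15 and 1.68 in the normoxia vehicle fetuses. The groups overlapped in both arms, and the SD within each of the 4 groups was between 0.50 and 0.54. The 4 lowest readings of all 15 were hypoxic, and the 3 highest were normoxic.

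Among ketamine fetuses HSD11B1 fell by 0.79 ± 0.34 (limma, adjusted p = 0.544), to 0.578 of the normoxic level, and the second probe fell by 0.82 (adjusted p = 0.546). Among vehicle fetuses the change was -0.35 ± 0.37 and did not pass, with a 95% interval of -1.14 to 0.44. The 2 changes were not shown to differ, since the interaction was -0.44 with an interval of -1.52 to 0.64. The ketamine call was lost without hypoxia ketamine replicate 2 (-0.69) or 4 (-0.63) and without normoxia ketamine replicate 2 (-0.60) or 3 (-0.69), and the two-sided exact permutation test gave p = 0.114. The change among ketamine fetuses did not pass within slide 2 (-0.26), without the placental lactogen arrays (-0.56) or without the 2 arrays of lowest correlation (-0.69).

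The HSD11B1 average over both drug arms (limma, adjusted p = 0.225) also rested on single arrays: leaving out any 1 of 8 ended the call, with values between -0.58 and -0.44. These were replicate 2 or 4 of the hypoxia ketamine group (-0.52 and -0.49), replicate 2 or 4 of the hypoxia vehicle group (-0.58 and -0.45), replicate 2 or 3 of the normoxia ketamine group (-0.47 and -0.52), and replicate 2 or 3 of the normoxia vehicle group (-0.58 and -0.44). The average was -0.45 without the placental lactogen arrays and -0.40 without the 2 arrays of lowest correlation, and neither passed. It was -0.88 within slide 1, which passed, and -0.39 within slide 2, which did not.

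HSD11B2, the enzyme that inactivates cortisol, passed the threshold in none of the 7 comparisons with limma at either probe, under the 75th percentile scaling used throughout. One probe read 5.21, 5.23, 5.76 and 6.15 in the hypoxia ketamine fetuses and 5.56, 5.67, 5.38 and 5.02 in the hypoxia vehicle fetuses. It read 5.70, 5.82, 5.91 and 5.60 in the normoxia ketamine fetuses and 5.50, 5.80 and 5.68 in the normoxia vehicle fetuses. The lowest 4 readings were hypoxic and so was the highest, hypoxia ketamine replicate 4. The change with hypoxia was -0.17 (95% interval -0.60 to 0.27) among ketamine fetuses and -0.26 (-0.73 to 0.21) among vehicle fetuses. These intervals contain 0 and also contain falls as large as those of the receptors. Without hypoxia ketamine replicate 4 the average over both arms passed the unadjusted threshold at -0.31, against -0.21 with it. It also passed under quantile scaling (-0.34) and in the authors' deposited table (-0.36).

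In each drug arm 3 of the 7 probes, from 2 of the 4 genes, fell with hypoxia. Among ketamine fetuses these were the NR3C1 probe and both HSD11B1 probes. Among vehicle fetuses they were the NR3C1 probe and both NR3C2 probes. Of all tested probes 4.94% were lower and 8.67% changed in either direction among ketamine fetuses, and 9.93% and 15.9% did so among vehicle fetuses. NR3C1 was called lower in each arm separately, as were 2.15% of all tested probes. Which genes are called in both arms depends on the fit, since NR3C1 lost and NR3C2 gained the call among ketamine fetuses under several of the alternatives.

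Ketamine itself left no called difference in the 4 genes. With limma, 0 of the 7 probes had an unadjusted p of at most 0.05 for ketamine against vehicle in hypoxic fetuses, where 6.03% of all probes did, and 0 of 7 in normoxic fetuses, where 2.72% did. The two-sided exact permutation test called 0 of the 4 genes in hypoxic fetuses. In normoxic fetuses it could call none, since 0.0571 is the smallest p that 4 against 3 allows. The same count of 0 of 7 held for the average over both oxygen arms (4.71% of all probes) and for the interaction of hypoxia with ketamine (3.1%). In hypoxic fetuses the 95% interval of the ketamine effect ran from -0.40 to 0.33 for NR3C1, from -0.24 to 0.41 for NR3C2, from -1.11 to 0.36 for HSD11B1 and from -0.25 to 0.62 for HSD11B2. In normoxic fetuses it ran from -0.46 to 0.33, from -0.45 to 0.26, from -0.73 to 0.86 and from -0.37 to 0.57 for the same genes in that order. The receptor intervals exclude a ketamine effect of 1 log2 unit in either direction, and the HSD11B1 interval in hypoxic fetuses does not exclude a fall of that size.

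**Figure D2:**
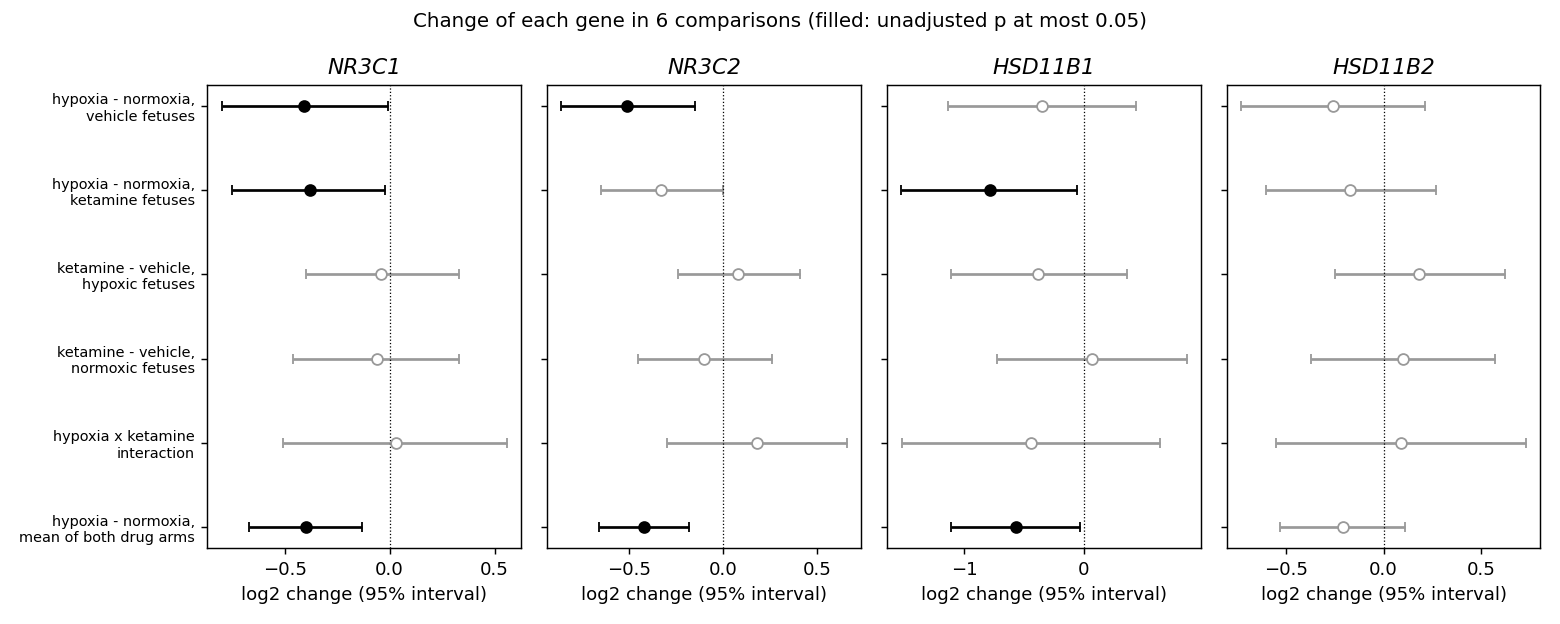
Log2 change with its 95% interval (horizontal axis) of the 4 genes in 6 comparisons (rows), with filled points for unadjusted p of at most 0.05. The estimates of all 4 genes lie below 0 in the 3 hypoxia comparisons. There the interval crosses 0 for HSD11B2 in each and for HSD11B1 among vehicle fetuses, and reaches 0.00 for NR3C2 among ketamine fetuses. Each ketamine and interaction interval crosses 0.

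Genes that work with the receptors were read from 5 lists, of which few members are on this array or could be named. Among nuclear receptors and coregulators, 9 of 33 genes were tested. Among ketamine fetuses 2 fell with hypoxia, NR3C1 and THRB, a thyroid hormone receptor, and the median change was -0.16, against -0.02 over all tested probes (4.94% of which were lower). THRB read -2.48, -2.64, -2.17 and -2.48 in the hypoxia ketamine fetuses and -2.0, -1.97, -1.89 and -2.07 in the normoxia ketamine fetuses, without overlap, as 3.62% of all tested probes did in this direction. That fall was 0.46 ± 0.16 (limma, adjusted p = 0.454), and the average over both arms was -0.37 (adjusted p = 0.12). Among vehicle fetuses 2 fell, NR3C1 and NR3C2, and the median change was -0.15, against -0.04 over all tested probes (9.93% of which were lower). The estrogen receptors ESR1 and ESR2, PPARA, PPARG and the coactivator PPARGC1A passed in neither arm.

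Only 3 of 18 chaperone and cochaperone genes, which hold NR3C1 ready for hormone, were tested. None passed for hypoxia. HSPA1A, an inducible HSP70, read 1.84, 1.85, 2.06 and 2.11 in the hypoxia ketamine fetuses and 2.95, 1.88, 2.72 and 3.04 in the hypoxia vehicle fetuses. Ketamine fetuses were thus lower by 0.68 ± 0.22 (limma, adjusted p = 0.794) with 1 vehicle fetus inside their range. The other HSPA1A probe changed by -0.73 ± 0.23 (adjusted p = 0.794). HSP90AA1 differed by -0.20 ± 0.19 and HSPA5 by -0.46 ± 0.31 in the same comparison.

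Of 30 genes for corticosteroid synthesis, transport and metabolism, 10 were on the array and 6 were tested. HSD11B1 was the only one called. It was lower with hypoxia among ketamine fetuses (4.94% of all tested probes were lower) and in the average over both arms (12.1%). None was called among vehicle fetuses (9.93% of all tested probes were lower). Adrenal steroidogenic genes were near background: NR5A1, STAR, MC2R, CYP11A1 and CYP11B1 did not reach the filter, and CYP17A1, the steroid 17-hydroxylase, passed it with 1 of its 2 probes. CYP17A1 changed by -0.12 ± 0.14 among ketamine and -0.03 ± 0.15 among vehicle fetuses with hypoxia.

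Among genes listed here as raised by glucocorticoids, the called changes with hypoxia ran upward. Whether glucocorticoids raise each of them in fetal kidney, CYP24 and MT3 among them, was not tested. Of 8 tested genes of 35 listed, 3 rose among ketamine fetuses (3.72% of all tested probes were higher) and 5 among vehicle fetuses (6%), and none fell. The median change was 0.76 among ketamine fetuses (-0.02 over all tested probes) and 1.70 among vehicle fetuses (-0.04). Each of these genes also answers to other signals, and circulating cortisol is not analysed here.

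PER1, a clock gene that glucocorticoids induce directly, read -5.12, -5.11, -6.05 and -5.86 in the hypoxia ketamine fetuses and -4.83, -5.86, -4.85 and -5.60 in the hypoxia vehicle fetuses. It read -6.49, -5.80, -5.85 and -6.84 in the normoxia ketamine fetuses and -6.37, -5.99 and -6.02 in the normoxia vehicle fetuses. It rose by 0.71 ± 0.31 among ketamine fetuses (limma, adjusted p = 0.544), with overlap, and by 0.84 ± 0.33 among vehicle fetuses (adjusted p = 0.259).

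IGFBP1, a binding protein that restrains insulin-like growth factors, showed the widest range. It read -0.55, 2.46, -4.93 and -2.16 in the hypoxia ketamine fetuses and -0.73, -4.21, 1.80 and -3.78 in the hypoxia vehicle fetuses. It read -6.37, -6.18, -3.86 and -7.53 in the normoxia ketamine fetuses and -5.18, -5.73 and -6.14 in the normoxia vehicle fetuses. It rose by 4.69 ± 1.5 among ketamine fetuses (limma, adjusted p = 0.374), with overlap, and by 3.96 ± 1.62 among vehicle fetuses (adjusted p = 0.268). Its other 2 probes rose by 3.79 and 5.38 among ketamine fetuses and by 3.33 and 3.87 among vehicle fetuses. CYP24, which inactivates vitamin D, rose by 2.19 ± 0.97 among ketamine (adjusted p = 0.555) and by 3.61 ± 1.05 among vehicle fetuses (adjusted p = 0.176). CYP24 was well above background on 3 of 4 hypoxia ketamine and 4 of 4 hypoxia vehicle arrays, and on 2 of 4 normoxia ketamine and 1 of 3 normoxia vehicle arrays, so these differences are set against values near background.

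NFKBIA, an inhibitor of NF-kappaB that glucocorticoids and inflammatory signals both induce, read 3.01, 3.14, 1.52 and 1.95 in the hypoxia ketamine fetuses and 4.76, 3.02, 2.87 and 5.34 in the hypoxia vehicle fetuses. It read 1.5, 1.53, 1.66 and 1.69 in the normoxia ketamine fetuses and 1.44, 1.25 and 1.65 in the normoxia vehicle fetuses. It changed by 0.81 ± 0.50 among ketamine fetuses, which did not pass, and rose by 2.56 ± 0.54 among vehicle fetuses (limma, adjusted p = 0.115). The test of that difference gave an interaction of -1.75, past the unadjusted threshold (adjusted p = 0.991). Averaged over both arms it rose by 1.68 with adjusted p = 0.0428, the only one of the 8 to pass after adjustment. CEBPB, a transcription factor, changed by 1.33 ± 0.70 among ketamine fetuses, which did not pass, and rose by 2.61 ± 0.76 among vehicle fetuses (adjusted p = 0.176).

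PCK1, the gluconeogenic enzyme, ran from -5.06 to -0.50 across hypoxic fetuses and was not called, at 0.01 ± 0.98 among ketamine and 0.69 ± 1.06 among vehicle fetuses. The metallothionein MT3 and the cell cycle inhibitor CDKN1C were not called either. Thus 3 of the 8 genes did not pass in either arm.

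Leukocyte genes moved with these. Of 7 tested leukocyte markers 3 rose with hypoxia among ketamine fetuses (3.72% of all tested probes were higher) and 5 among vehicle fetuses (6%), and CD4 was below the filter. Their summed level, in multiples of the array's 75th percentile, was 1.62 to 4.38 in hypoxia ketamine fetuses and 2.41 to 10.3 in hypoxia vehicle fetuses. It was 1.0 to 1.32 in normoxia ketamine fetuses and 1.15 to 1.21 in normoxia vehicle fetuses. The chemokine CXCL8, which cells other than leukocytes also make, alone reached 0.0529 to 0.436 in hypoxia ketamine and 0.165 to 7.94 in hypoxia vehicle fetuses. Without CXCL8 the sum was 1.55 to 3.94 in hypoxia ketamine and 1.4 to 4.43 in hypoxia vehicle fetuses, against 0.948 to 1.27 in normoxia ketamine and 1.1 to 1.15 in normoxia vehicle fetuses. The part of leukocytes in the changes of the receptors or of the genes above was not tested. Single markers of other cell types fell with hypoxia in both arms. Of all tested probes 4.94% were lower among ketamine fetuses, 9.93% among vehicle fetuses and 2.15% in each arm separately. SLC4A4, a bicarbonate transporter of the proximal tubule and 1 of 5 tested markers of that segment, fell by 0.61 ± 0.16 among ketamine and 0.53 ± 0.17 among vehicle fetuses (limma, adjusted p = 0.0374 for the average). COL3A1, an interstitial collagen and 1 of 4 tested fibroblast markers, fell by 0.49 ± 0.13 among ketamine and 0.56 ± 0.14 among vehicle fetuses (adjusted p = 0.0216 for the average). KDR, a VEGF receptor and 1 of 2 tested endothelial markers, fell by 0.50 ± 0.16 among ketamine and 0.45 ± 0.17 among vehicle fetuses (adjusted p = 0.0533 for the average). No other tested marker of these 3 lists fell in either arm, and AQP1, a water channel of the proximal tubule, rose by 0.45 among vehicle fetuses. The summed level of the proximal tubule markers was 58.5 to 86.3 in hypoxia ketamine and 45.5 to 91.8 in hypoxia vehicle fetuses, against 61.6 to 71.6 in normoxia ketamine and 57 to 79.1 in normoxia vehicle fetuses. The sum of the fibroblast markers was 96.9 to 129 in hypoxia ketamine and 94.7 to 113 in hypoxia vehicle fetuses, against 87 to 117 in normoxia ketamine and 93.2 to 101 in normoxia vehicle fetuses. The sum of the endothelial markers was 3.61 to 5.78 in hypoxia ketamine and 2.37 to 6.3 in hypoxia vehicle fetuses, against 4.84 to 5.81 in normoxia ketamine and 5.14 to 5.69 in normoxia vehicle fetuses. Each of these sums overlapped between hypoxic and normoxic fetuses, and their part in the receptors' changes was not tested. In whole cortex, fewer cells of a type and less RNA per cell cannot be told apart.

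The summed level of 7 collecting duct markers, the segment where NR3C2 and HSD11B2 act together, was 7.67 to 10.8 in hypoxia ketamine and 7.01 to 11 in hypoxia vehicle fetuses. It was 7.02 to 8.63 in normoxia ketamine and 7.80 to 8.40 in normoxia vehicle fetuses. AQP2 changed by -0.11 ± 0.17 among ketamine and -0.02 ± 0.18 among vehicle fetuses with hypoxia, and AQP3 rose by 0.74 ± 0.22 among vehicle fetuses (limma, adjusted p = 0.176).

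Transport genes that mineralocorticoids are known to regulate were read next. Of 9 tested genes of 21 on that list, which holds NR3C2 and HSD11B2 too, 0 were called for hypoxia among ketamine fetuses with limma (8.67% of all tested probes were), and among vehicle fetuses SLC9A3 rose and NR3C2 fell, 2 of 9 (15.9% of all tested probes were called). The epithelial sodium channel subunits SCNN1A, SCNN1B and SCNN1G, named in that order, changed by 0.19 ± 0.27, -0.25 ± 0.26 and -0.13 ± 0.33 among ketamine fetuses and by 0.32 ± 0.29, 0.10 ± 0.28 and 0.54 ± 0.36 among vehicle fetuses. The sodium pump beta subunit ATP1B1 changed by -0.19 ± 0.15 among ketamine fetuses and by 0.10 ± 0.16 among vehicle fetuses.

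SLC9A3, the apical sodium-hydrogen exchanger, read -6.16, -5.62, -6.43 and -6.29 in the hypoxia ketamine fetuses and -5.53, -5.63, -4.78 and -5.71 in the hypoxia vehicle fetuses. It read -5.78, -5.83, -6.21 and -5.80 in the normoxia ketamine fetuses and -6.36, -5.98 and -6.26 in the normoxia vehicle fetuses. Thus it rose by 0.79 ± 0.23 with hypoxia among vehicle fetuses (limma, adjusted p = 0.176) and was lower by 0.71 ± 0.22 with ketamine among hypoxic fetuses (adjusted p = 0.794). The interaction was -1.01, past the unadjusted threshold (adjusted p = 0.991). Its other probe passed in none of these, at 0.58 among ketamine and 0.21 among vehicle fetuses with hypoxia, and at -0.54 with ketamine among hypoxic fetuses, the same direction as the first probe, with an interaction of 0.37, the opposite direction.

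**Figure D3:**
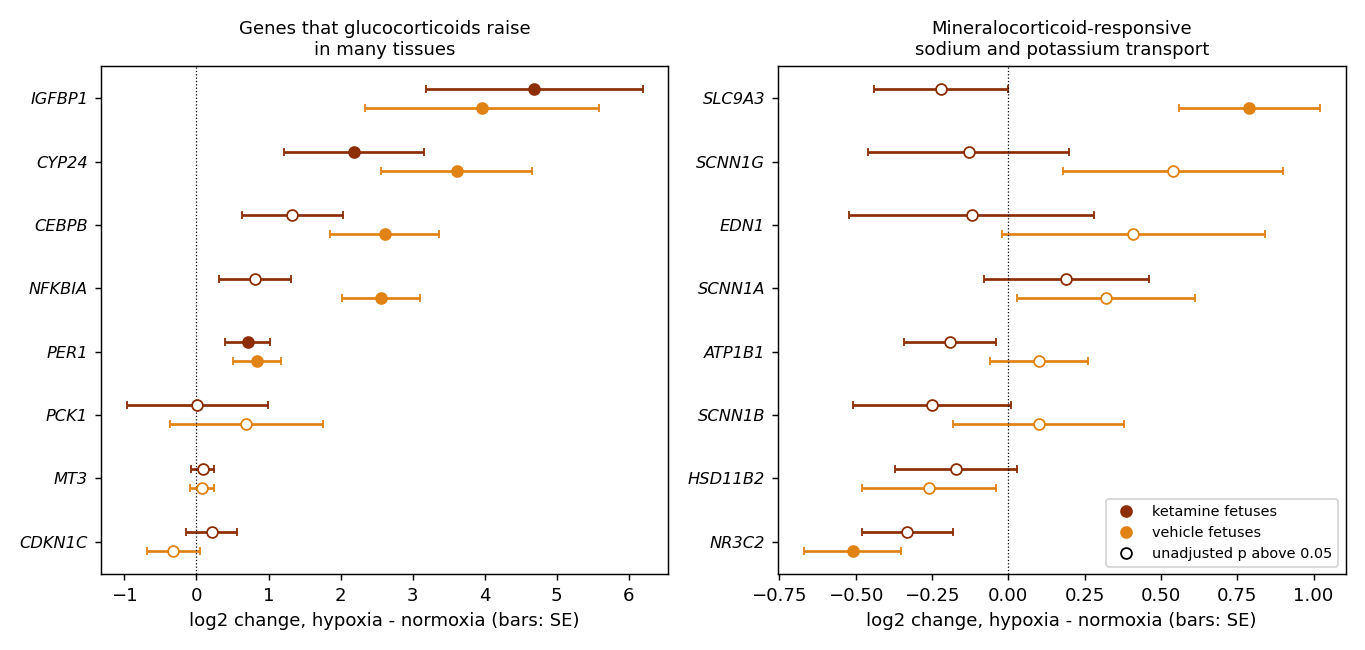
Log2 change of hypoxia minus normoxia with its SE (horizontal axis) in ketamine and vehicle fetuses. The left panel holds 8 genes listed as raised by glucocorticoids, and the right panel holds 8 mineralocorticoid-responsive transport genes. Filled points have an unadjusted p of at most 0.05; IGFBP1, CYP24 and PER1 are filled in both arms, while the sodium channel subunits are open.

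The 684 named genes tested were then ranked by how closely each followed the members over the 15 arrays. These correlations describe arrays that share labelling, slides and the hypoxia contrast. NR3C1 was followed most closely by NTN4, a laminin-related netrin (Pearson r = 0.81, and 0.61 after group means were removed), then by H3F3A (0.78), SNAI1 (0.77), ALB (0.75) and RIT1 (0.74). The ALB probe was well above background on 3 of the 15 arrays only, so its correlation was read mostly from values near background. HSD11B1 was followed by CDK2 (0.79), the growth hormone receptor GHR (0.77), NRF1 (0.76) and PPARA (0.72). HSD11B2 was followed by BAD (0.82), IGFBP5 (0.80), CDK5 (0.79), CAST (0.77) and PECAM1 (0.74).

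NR3C1 and the brighter NR3C2 probe correlated at 0.658 over all arrays and at 0.31 after group means were removed. HSD11B1 and HSD11B2 correlated at 0.248, and at 0.14 within groups.

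NR3C2 had the closest followers, which were picked for naming after their values were seen. RIT1, a small GTPase, followed it at 0.90 and at 0.79 within groups. Running opposite were CLEC6A, a C-type lectin of myeloid cells (-0.94, and -0.91 within groups), the MHC class I antigen named OVAR (-0.93 and -0.90) and B2M, the light chain of MHC class I (-0.90 and -0.84). CLEC6A read -2.53, 0.26, -2.66 and -2.06 in the hypoxia ketamine fetuses and -2.13, -0.26, -1.47 and -0.66 in the hypoxia vehicle fetuses. It read -3.77, -3.54, -3.60 and -3.15 in the normoxia ketamine fetuses and -3.13, -2.77 and -3.45 in the normoxia vehicle fetuses. Hypoxia replicate 2 of either drug arm was thus highest for CLEC6A and lowest for NR3C2. Hypoxia vehicle replicate 1, with the NR3C2 level nearest to normoxia, had the lowest B2M reading of all 15 arrays, at 3.70.

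**Figure D4:**
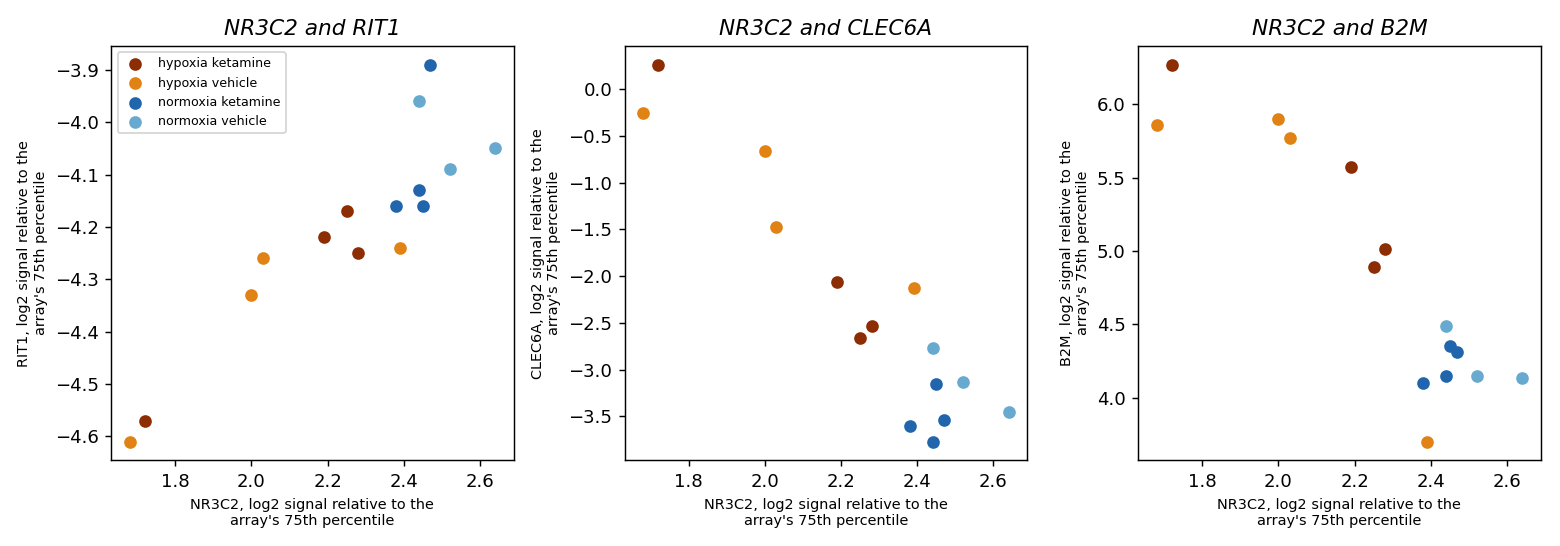
The brighter NR3C2 probe (horizontal axis) against RIT1, CLEC6A and B2M (vertical axes), all as log2 signal relative to the array's 75th percentile, with 1 point per fetus coloured by group. RIT1 runs with NR3C2, and CLEC6A and B2M run against it among the hypoxic fetuses, while the 7 normoxic fetuses sit close together at its upper end.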

How the data were processed

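Kidney cortex RNA of 15 ovine fetuses was hybridised to single-colour arrays on 2 slides, both holding every group. Per the file headers, the deposited intensity values are processed signals from Agilent Feature Extraction 10.1.1.1, background-subtracted. The authors' deposited log2 value table, made with limma per the submitters' processing notes, served as an alternative. It covers 11705 probes, and 12 of its 15 columns track another array of their own group best, so it was used for group comparisons only.

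Each processed signal was taken to log2 and the array's 75th percentile subtracted. Probes well above background on at least 3 arrays were tested (12925 of 15008) with limma 3.58.1 in R 4.3.3, 1 mean per group, and 7 comparisons. For genes with several probes, lists use the probe with the highest mean, and the text gives the others for some genes only. Pearson correlation ranked named genes, of which the top 5 are given, and values of some genes are not reported here. Members and lists were chosen with earlier results of these data known. Accession, name or description named 1236 probes. The files name no genome build, so no coordinates are given.

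In simulated data with 200 probes changed by 1 log2 unit among vehicle fetuses, 89.5% were recovered at the unadjusted and 63.5% at the adjusted threshold over 12925 probes, and 4.75% of unchanged probes were called. These shares do not describe changes as small as those of the members, each of which was below 1 log2 unit. The number of arrays limits precision. Same-numbered arrays of different groups did not deviate together (21 pairs, r -0.29 to 0.37), which cannot exclude a pairing of fetuses by number. Alternatives were normexp correction, quantile scaling, other filters, slide and replicate blocks, array weights, the deposited table, an exact permutation test and arrays left out.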

Additional observations from a re-analysis of the deposited data

Results flagged for a closer look

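Among 36 probes of the members and their pathway genes, 108 sets of 4 fetuses were checked for 1 fetus far from the others, a check that chance alone trips in about 1 of 20 sets. It picked out 3: ABCB1, a drug and steroid efflux pump, at -5.48 in hypoxia ketamine replicate 2, SCNN1G at -2.23 in hypoxia vehicle replicate 1, and SLC9A3 at -6.21 in normoxia ketamine replicate 3. None of the 7 member probes was among them.

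By limma's interaction term at the unadjusted threshold, the response to hypoxia differed between ketamine and vehicle fetuses for 2 of these probes. These were NFKBIA (-1.75) and SLC9A3 (-1.01), and 3.1% of all tested probes passed. Both had adjusted p = 0.991 over all 12925 tested probes, and no member gene was among them. The other SLC9A3 probe had an interaction in the opposite direction. A second HSPA1A probe, outside this check, had an interaction of -0.73 that passed limma's unadjusted threshold (adjusted p = 0.991). The checked HSPA1A probe, at -0.65, did not pass. The SLC9A3 probe of this check was well above background on 3 of 4 hypoxia ketamine arrays.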

How the results depend on the processing

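Hypoxia against normoxia. NR3C1 lost its call among vehicle fetuses under normexp correction (-0.34), with the slide as a block (-0.39), within slide 1 (-0.28) or 2 (-0.60) and without the 3 placental lactogen arrays (-0.41). With single arrays left out it was -0.51 to -0.33. Among ketamine fetuses NR3C1 lost its call under normexp (-0.06), within slide 1 (-0.45) or 2 (-0.32), with the replicate block (-0.38), with only the compared groups in the fit (-0.38), without the placental lactogen arrays (-0.22), without the 2 arrays of lowest correlation (-0.33) and under the exact test (-0.38), and was -0.48 to -0.26 with single arrays left out. Its average over drug arms lost the call under normexp (-0.20), within slide 1 (-0.36) or 2 (-0.46) and without the placental lactogen arrays (-0.31). The NR3C2 call among vehicle fetuses was lost within slide 2 (-0.43), and its average within slide 2 (-0.29). The exact permutation test called neither receptor among vehicle fetuses (-0.41 for NR3C1 and -0.51 for NR3C2). It could not do so, since 0.0571 is the smallest two-sided p that 4 against 3 allows. Among ketamine fetuses NR3C2 gained a call under normexp (-0.36), and at -0.33 each with the filter of all 15 arrays, the slide block, the replicate block, only the compared groups, the deposited table and the exact test; it was -0.38 to -0.20 with single arrays left out. HSD11B1 among ketamine fetuses lost its call within slide 2 (-0.26), without the placental lactogen arrays (-0.56), without the 2 arrays of lowest correlation (-0.69) and under the exact test (-0.79), and was -1.01 to -0.60 with single arrays left out. Its average lost the call within slide 2 (-0.39), with array weights (-0.41) and without the same 3 (-0.45) or 2 arrays (-0.40), and was -0.69 to -0.44 with single arrays left out. The HSD11B2 average gained a call under quantile scaling (-0.34) and in the deposited table (-0.36), and was -0.31 to -0.15 with single arrays left out. The cause was not tested, apart from fewer arrays in the settings that leave arrays out.

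Ketamine and interaction values changed sign without being called. NR3C1 in hypoxic fetuses was 0.16 under normexp, 0.03 under quantile scaling, 0.08 in the deposited table, 0.02 with array weights, 0.02 without the placental lactogen arrays and 0.12 without the 2 arrays (-0.13 to 0.09 with single arrays left out). In normoxic fetuses it was 0.01 under quantile scaling, 0.11 within slide 1 and 0.03 in the deposited table (-0.15 to 0.00), its interaction was -0.17 within slide 1 (-0.07 to 0.15), and its average was 0.02 under normexp and quantile scaling, 0.03 within slide 1, 0.05 in the deposited table and 0.03 without the 2 arrays (-0.10 to 0.01). The NR3C2 average was 0.05 within slide 1, 0.01 with array weights, and 0.05 without the placental lactogen or the 2 arrays (-0.06 to 0.06), and its value in hypoxic fetuses was -0.03 to 0.21 with single arrays left out. HSD11B1 in normoxic fetuses was -0.01 with the slide block, -0.57 within slide 2 and -0.06 without the placental lactogen arrays (-0.18 to 0.32), and its interaction was 0.27 within slide 2. The HSD11B2 interaction was -0.06 within slide 2 and -0.01 with array weights (-0.10 to 0.21), and its value in hypoxic fetuses was -0.00 to 0.31 with single arrays left out.

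The replicate block changed no other member's call, and the numbers mark no known pairing. Of the 33 pathway genes tested, 8 passed among vehicle fetuses, as did 15.9% of all tested probes. Among ketamine fetuses 6 passed (8.67% of all tested probes), and 3 passed for ketamine in hypoxic fetuses (6.03%). Those counts were 4 under normexp, 1 without the placental lactogen arrays and 5 with the replicate block, in that order, and with single arrays left out 5 to 9, 2 to 9 and 3 to 7. Scaling moved the share of higher calls among all probes: for hypoxia in ketamine fetuses it was 42.9%, and 62.5% under normexp, for ketamine in hypoxic fetuses 40.4%, and 51.9% under quantile scaling, for ketamine in normoxic fetuses 36.6%, and 52.4% under quantile scaling, and for ketamine on average 37.6%, and 51.3% under quantile scaling. Normexp put the median of all probes at -0.10 for hypoxia in vehicle fetuses, 0.11 for ketamine in hypoxic fetuses and 0.17 for the interaction.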
